A study of Mus musculus with 8 samples.

Results

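The interaction of RasV12 with the knockdown of Tgfbr1 was described over 12538 of the 24907 gene symbols of the counts table, in 8 of the 8 libraries of the series. For each gene it is the response to RasV12 in knockdown cells minus the response to RasV12 in control cells, on the log2 scale. A value of 0 means that both changes add up, a positive value that the gene responded more upward in the knockdown cells, and a negative value that it responded more downward there. Every gene that passed a filter on low counts is a member, so no gene was chosen for its response.

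All libraries are of ASZ001 cells, a mouse line from basal cell carcinoma, a skin tumour in which Hedgehog signalling is active, and the title of the series concerns the change from a basal to a squamous carcinoma. The TGFbR1kd_RasV12 group carried an shRNA against Tgfbr1 and was treated with Dox and 4OHT, the TGFbR1kd group carried that shRNA and was treated with DMSO, the NS_RasV12 group carried a non-silencing shRNA and was treated with Dox and 4OHT, and the NS group carried the non-silencing shRNA and was treated with DMSO. Each of the 4 groups held 2 libraries. The genotype label names RasV12, an activated Ras, only for the groups given Dox and 4OHT, and as no group received these agents without RasV12, drug and Ras effects cannot be told apart. "Ras response" stands for both here. All 4 groups are of 1 line and 1 shRNA per target, and the labels are silent on whether paired libraries of a group are separate cultures. The p-values therefore measure the spread between these samples alone, which may be technical.

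Ras proteins switch on the RAF, MEK and ERK kinases, and ERK raises a set of targets that includes ETS and AP-1 transcription factors, the Sprouty and dual-specificity phosphatase inhibitors that damp the same cascade, and ligands of the EGF receptor. TGF-beta binds a pair of receptor kinases, and the type I receptor encoded by Tgfbr1 phosphorylates SMAD proteins. In keratinocytes TGF-beta is known to restrain the cell cycle through inhibitors such as Cdkn1a and Cdkn2b and to raise matrix and protease genes.

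Library totals lay between 12724604.5 and 16233379 counts, and the biological coefficient of variation between libraries of a group was 3.37%. Tgfbr1, the target of the shRNA, stood at 8.86 and 9.38 CPM in TGFbR1kd_RasV12, 10.2 and 8.08 CPM in TGFbR1kd, 104 and 91.6 CPM in NS_RasV12 and 77.1 and 80.4 CPM in NS libraries. CPM are counts relative to the scaled size of the library. All 8 libraries thus matched their shRNA labels. The interaction of Tgfbr1 itself was -0.31 ± 0.15 (adjusted p = 0.118), with -0.16 without TGFbR1kd replicate 1 as the smallest value of those with single libraries left out. It passed without TGFbR1kd replicate 2 (-0.48, adjusted p = 0.0384) or NS_RasV12 replicate 2 (-0.41, adjusted p = 0.03). Values after ± are standard errors where they follow a log2 value, and each adjusted p is from the quasi-likelihood F test of edgeR, corrected by Benjamini and Hochberg across the 12538 genes. Esr1, whose ligand-binding domain is a common fusion partner for 4OHT-controlled proteins, stood at 3987 and 3787 CPM in TGFbR1kd_RasV12, 22.8 and 22.4 CPM in TGFbR1kd, 3451 and 3657 CPM in NS_RasV12 and 15.9 and 14.1 CPM in NS libraries, and its interaction was -0.46 ± 0.07 (adjusted p = 2.27e-05). Hras stood at 53.3 and 52.4 CPM in TGFbR1kd_RasV12, 57.9 and 58.6 CPM in TGFbR1kd, 162 and 158 CPM in NS_RasV12 and 176 and 179 CPM in NS libraries, lower in both knockdown groups, and its interaction was 0.01 ± 0.07 (adjusted p = 0.933). Nras had an interaction of -0.13 ± 0.05 (adjusted p = 0.0411), which misses a threshold of 0.01. At the threshold of 0.05 it no longer passed in 9 of the alternatives tried, among them without either TGFbR1kd_RasV12 replicate, TGFbR1kd replicate 2, NS_RasV12 replicate 1 or either NS replicate. Counts of ribosomal RNA (Rn45s) were 2.49% and 2.57% of the total in the TGFbR1kd_RasV12 libraries, 0.388% and 1.36% in the TGFbR1kd libraries, 0.916% and 2.76% in the NS_RasV12 libraries and 0.816% and 0.549% in the NS libraries.

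The Ras response depended on the knockdown for a large share of the genes. At an adjusted p under 0.05 the interaction passed for 4791 genes, which is 38.2% of those tested, with 2530 positive (20.2%) and 2261 negative (18%). Most of these differences were small, with a median absolute interaction of 0.41 among genes that passed, against 0.24 over all genes. An interaction of at least 1 on the log2 scale was found for 537 genes (4.28%), and here 442 were positive and 95 negative. Among the 10275 genes with at least 5 CPM over all libraries and 20 counts in each group the interaction passed for 4480 (43.6%), and 235 large ones were positive against 39 negative. The Ras response alone passed for 36.1% of genes in knockdown cells and 42.1% in NS cells, and the effect of the knockdown under DMSO passed for 61.9%. Of the 5281 genes with a Ras response in NS cells 3264 had an interaction, and these counts share the NS and NS_RasV12 libraries. The Ras responses of the 2 kinds of cells rest on different libraries, and over the 12538 genes they were related with a Pearson correlation of 0.29 and a Spearman correlation of 0.11, given as a description since genes are not independent. They had the same sign for 6474 genes.

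**Figure D1:**
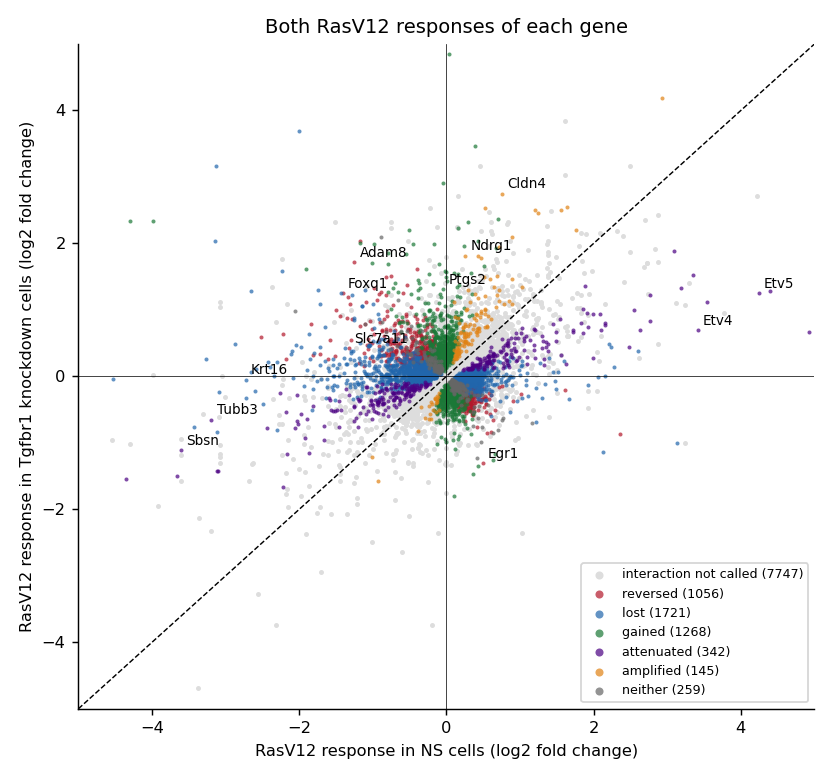
Each point is a gene, with its Ras response in NS cells on the horizontal axis and its Ras response in Tgfbr1 knockdown cells on the vertical axis, both as log2 fold changes. The dashed line marks equal responses, where the interaction is 0, colours give the class of each gene past the interaction test, and 18 genes lie outside the axes. Etv5 and Etv4 lie far right and below the line, and Krt16, Sbsn and Tubb3 far left and above it.

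The genes past the test were sorted by the Ras responses behind the interaction. A reversed response passed in both kinds of cells with opposite signs, a lost response passed in NS cells only, and a gained response in knockdown cells only. An attenuated response passed in both with the same sign and was smaller in knockdown cells, and an amplified one was larger there. By these rules 1056 genes were reversed (8.42% of those tested), 1721 lost (13.7%), 1268 gained (10.1%), 342 attenuated (2.73%) and 145 amplified (1.16%), while 259 passed for neither response alone (2.07%). The attenuated count was 219 without TGFbR1kd_RasV12 replicate 1, and the amplified count was 89 and 90 without NS replicate 1 and 2. In NS cells 522 of the reversed genes rose and 534 fell. Those that rose in NS cells had a median response of -0.23 in knockdown cells and 0.23 in NS cells, and those that fell in NS cells had medians of 0.29 in knockdown cells and -0.34 in NS cells. The lost responses were 777 rises and 944 falls, and the gained ones 639 rises and 629 falls. Large interactions were unevenly spread, with 137 of the reversed and 165 of the lost falls reaching 1, against 12 of the reversed and 32 of the lost rises.

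A second sorting asked whether RasV12 alone and the knockdown alone moved a gene the same way. Where they did and the combination fell short of their sum the gene was called saturated, and where it went past their sum it was called beyond additive. There were 2054 saturated genes (16.4%), 970 of them moved up by each change alone and 1084 moved down. Of the 970 and the 1084, 362 and 359 were also in the reversed class, where RasV12 moved the gene back in knockdown cells. The name saturated therefore gives the sign of the departure and does not mean that a limit was reached. Only 66 genes (0.526%) were beyond additive, 55 upward and 11 downward, and 42 and 40 without NS replicate 1 and 2. Both single effects are measured against the same NS libraries, which the interaction also contains, so an NS level that is off by chance moves all 3 together. For 737 of the 970 genes saturated upward and 868 of the 1084 saturated downward, the combined effect against the NS group was no larger than the larger single effect.

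**Figure D2:**
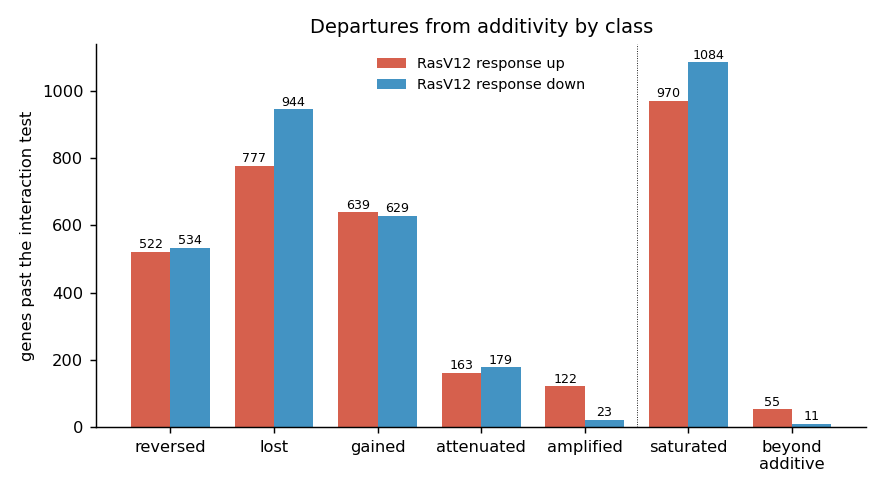
Bars count the genes past the interaction test in each class, separately for Ras responses that were up and down, taken in NS cells except for gained genes, where the direction is that in knockdown cells. Left of the dotted line are the classes by Ras response and right of it the sorting by single effects, which counts some of the same genes again. The lost class is the tallest of the left part, with 777 and 944 genes, and 970 and 1084 saturated genes stand beside 55 and 11 beyond additive.

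The nearest readouts of Ras, the ERK targets and feedback inhibitors, were mostly saturated. Of the 19 genes of this list, all tested, the Ras response rose for 16 in knockdown cells (19.5% of all genes rose) and for 17 in NS cells (20.8% of all genes). The knockdown alone raised 18 (30.9% of all genes), and the interaction was negative for 13 (18% of all genes) and positive for 2 (20.2%). Of these members 13 were attenuated (2.73% of all genes) and 13 saturated (16.4% of all genes). The median interaction of the list was -0.71, against 0.02 over all genes tested. Etv5, an ETS factor of the PEA3 group, stood at 102 and 109 CPM in TGFbR1kd_RasV12, 40.2 and 48.2 CPM in TGFbR1kd, 61.1 and 62.1 CPM in NS_RasV12 and 3.11 and 3.41 CPM in NS libraries. Its lowest value is that of the NS libraries, and the TGFbR1kd libraries without RasV12 already lie near the NS_RasV12 libraries. Its Ras response was 1.25 ± 0.07 (adjusted p = 1.1e-13) in knockdown cells and 4.24 ± 0.12 (adjusted p = 1.18e-19) in NS cells, an interaction of -2.99 ± 0.15 (adjusted p = 9.21e-14). Adding the single effects on the log2 scale would give 835 CPM, against 105 CPM measured and 103 CPM by adding them in CPM. Etv4, its close relative, was at 156 and 152 CPM in TGFbR1kd_RasV12, 91.5 and 98.8 CPM in TGFbR1kd, 114 and 125 CPM in NS_RasV12 and 10.7 and 11.8 CPM in NS libraries, with the groups in the same order and no overlap. The interaction of Etv4 was -2.72 ± 0.09 (adjusted p = 9.2e-18). Dusp6, a phosphatase of ERK, was attenuated with an interaction of -1.95 ± 0.12 (adjusted p = 4.61e-08), and Spry1, a feedback inhibitor, with -1.18 ± 0.15 (adjusted p = 5.95e-07). Ier3, an early response gene, went the other way: at 306 and 317 CPM in TGFbR1kd_RasV12, 78.8 and 83.1 CPM in TGFbR1kd, 56.5 and 60.9 CPM in NS_RasV12 and 33.9 and 37.8 CPM in NS libraries, its Ras response was 1.94 ± 0.05 (adjusted p = 5.3e-22) in knockdown cells and 0.72 ± 0.06 (adjusted p = 3.12e-10) in NS cells, and the interaction 1.23 ± 0.08 (adjusted p = 2.88e-12) put it beyond additive. Ccnd1, the cyclin of early G1, rose in both kinds of cells, by 0.69 ± 0.04 in knockdown cells and 0.68 ± 0.04 in NS cells, with an interaction of 0.01 ± 0.06 (adjusted p = 0.876).

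The ligands of the EGF receptor family mostly had negative interactions. All 7 tested members rose with Ras in NS cells (20.8% of all genes) and 3 in knockdown cells (19.5% of all genes). The knockdown alone raised 6 (30.9% of all genes), and the interaction was negative for 6 (18% of all genes), with a median of -1.13. Ereg, epiregulin, stood at 16.5 and 15.8 CPM in TGFbR1kd_RasV12, 16.7 and 18.1 CPM in TGFbR1kd, 5.87 and 4.39 CPM in NS_RasV12 and 1.99 and 2.06 CPM in NS libraries. The knockdown groups lay close together and far above both NS groups. The Ras response of Ereg was -0.11 ± 0.11 (adjusted p = 0.463) in knockdown cells, with a 95% interval of -0.33 to 0.11. In NS cells it rose by 1.33 ± 0.21 (adjusted p = 1.03e-05), and the interaction was -1.44 ± 0.24 (adjusted p = 2.27e-05). Epgn, epigen, was at 59.8 and 63.1 CPM in TGFbR1kd_RasV12, 51.02 and 58.2 CPM in TGFbR1kd, 28.7 and 31.5 CPM in NS_RasV12 and 11.4 and 12.6 CPM in NS libraries, with a small rise of 0.17 in knockdown cells (adjusted p = 0.0477) beside 1.33 in NS cells (adjusted p = 1.36e-11). Nrg1, a neuregulin, was at 26.97 and 30.5 CPM in TGFbR1kd_RasV12, 26.1 and 30.4 CPM in TGFbR1kd, 25.01 and 26.1 CPM in NS_RasV12 and 12.1 and 13.4 CPM in NS libraries. The knockdown groups overlapped, the NS_RasV12 libraries lay at their lower edge, and the NS libraries stood lower. Its interaction was -0.99 ± 0.13 (adjusted p = 1.45e-06). Areg and Tgfa were attenuated, with -1.93 ± 0.42 (adjusted p = 0.000602) and -0.47 ± 0.09 (adjusted p = 8.41e-05), and Hbegf lost its response with -0.53 ± 0.14 (adjusted p = 0.00452).

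The reversed class held single genes with large changes. Prkg2, a cGMP-dependent protein kinase, was at 59.4 and 67.1 CPM in TGFbR1kd_RasV12, 69.1 and 75.9 CPM in TGFbR1kd, 31.5 and 28.4 CPM in NS_RasV12 and 8.71 and 11.1 CPM in NS libraries: its Ras response was -0.20 ± 0.07 (adjusted p = 0.0298) in knockdown cells and 1.61 ± 0.12 (adjusted p = 6.12e-10) in NS cells. The knockdown alone had raised it more than RasV12 alone. Egr1, an immediate early transcription factor and ERK target, was at 19.2 and 18.1 CPM in TGFbR1kd_RasV12, 43.4 and 48.8 CPM in TGFbR1kd, 19.1 and 20.9 CPM in NS_RasV12 and 14.1 and 14.5 CPM in NS libraries. The TGFbR1kd libraries stood far above the other 6. It fell in knockdown cells (-1.30 ± 0.08, adjusted p = 9.64e-13) and rose in NS cells (0.49 ± 0.10, adjusted p = 0.000222), an interaction of -1.80 ± 0.13 (adjusted p = 2.37e-11). Htr5b, a serotonin receptor, had an interaction of -1.41 ± 0.22 (adjusted p = 8.8e-06). In the other direction, Adam8, a membrane metalloprotease, was at 21.8 and 20.9 CPM in TGFbR1kd_RasV12, 6.11 and 6.82 CPM in TGFbR1kd, 1.39 and 1.17 CPM in NS_RasV12 and 2.86 and 3.27 CPM in NS libraries. It rose in knockdown cells (1.72 ± 0.12, adjusted p = 6.98e-12) and fell in NS cells (-1.25 ± 0.26, adjusted p = 0.000291), and the interaction of 2.97 ± 0.28 (adjusted p = 3.96e-09) left the TGFbR1kd_RasV12 libraries far above the other 6. Foxq1, a forkhead factor of the hair follicle, was at 36.5 and 34.5 CPM in TGFbR1kd_RasV12, 18.03 and 12.1 CPM in TGFbR1kd, 34.3 and 33.98 CPM in NS_RasV12 and 94.3 and 86.7 CPM in NS libraries. Its TGFbR1kd_RasV12 and NS_RasV12 libraries lay close together, between the high NS and the low TGFbR1kd libraries, and the interaction was 2.66 ± 0.16 (adjusted p = 1.01e-07). Pgm5, a phosphoglucomutase-like protein of adhesion sites, followed with 2.63 ± 0.30 (adjusted p = 2.17e-06) and Slc7a11, the cystine transporter, with 1.74 ± 0.08 (adjusted p = 1.43e-15). Slc7a11 was at 73.1 and 81.7 CPM in TGFbR1kd_RasV12, 59.7 and 55.5 CPM in TGFbR1kd, 71.6 and 69.9 CPM in NS_RasV12 and 176 and 177 CPM in NS libraries, so both kinds of cells had similar levels under RasV12 and lay far below the NS libraries.

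Genes of DNA replication and mitosis were mostly reversed. Of 23 listed, all tested, 17 fell with Ras in knockdown cells (16.6% of all genes fell) and none rose. In NS cells 19 rose and 2 fell, against 20.8% and 21.3% of all genes. The interaction was negative for 20 (18% of all genes) and positive for 0, with a median of -0.50. Of the 23, 14 were reversed (8.42% of all genes) and 4 lost, near the share of all genes (13.7%). The knockdown alone raised 13 and lowered 5, against 30.9% and 31% of all genes, and 13 were saturated (16.4% of all genes). Mcm2, a subunit of the replicative helicase, was at 259 and 249.6 CPM in TGFbR1kd_RasV12, 348 and 358 CPM in TGFbR1kd, 284 and 294 CPM in NS_RasV12 and 235 and 249 CPM in NS libraries, an interaction of -0.73 ± 0.05 (adjusted p = 2.63e-11). The TGFbR1kd libraries were highest and the TGFbR1kd_RasV12 libraries lay just above the NS libraries. Mcm5 of the same helicase was at 241 and 228 CPM in TGFbR1kd_RasV12, 296 and 304 CPM in TGFbR1kd, 333 and 337 CPM in NS_RasV12 and 275 and 279 CPM in NS libraries; here the TGFbR1kd_RasV12 libraries were the lowest of all, with -0.63 ± 0.05 (adjusted p = 1.81e-10). The mitotic cyclin gene Ccnb1 fell in knockdown cells (-0.32 ± 0.06, adjusted p = 4.27e-05) and rose in NS cells (0.51 ± 0.05, adjusted p = 1.75e-08), with an interaction of -0.83 ± 0.08 (adjusted p = 3.56e-09). Mki67 was not called, with -0.85 ± 0.25 (adjusted p = 0.0633). The changes were modest in size, none of the 20 reaching an interaction of 1. The inhibitor Cdkn1a, a TGF-beta target that blocks cyclin-dependent kinases, went against them: at 69.8 and 67.5 CPM in TGFbR1kd_RasV12, 42.2 and 36.8 CPM in TGFbR1kd, 30.3 and 31.9 CPM in NS_RasV12 and 51.7 and 49.3 CPM in NS libraries, it rose in knockdown cells (0.80 ± 0.06, adjusted p = 1.26e-10) and fell in NS cells (-0.70 ± 0.07, adjusted p = 4.47e-09). The interaction of Cdkn1a was 1.51 ± 0.10 (adjusted p = 2.07e-12), and the 4 groups did not overlap. Cdkn2b, another such inhibitor, gained a rise of 0.45 in knockdown cells, with an interaction of 0.53 ± 0.10 (adjusted p = 6.84e-05).

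**Figure D3:**
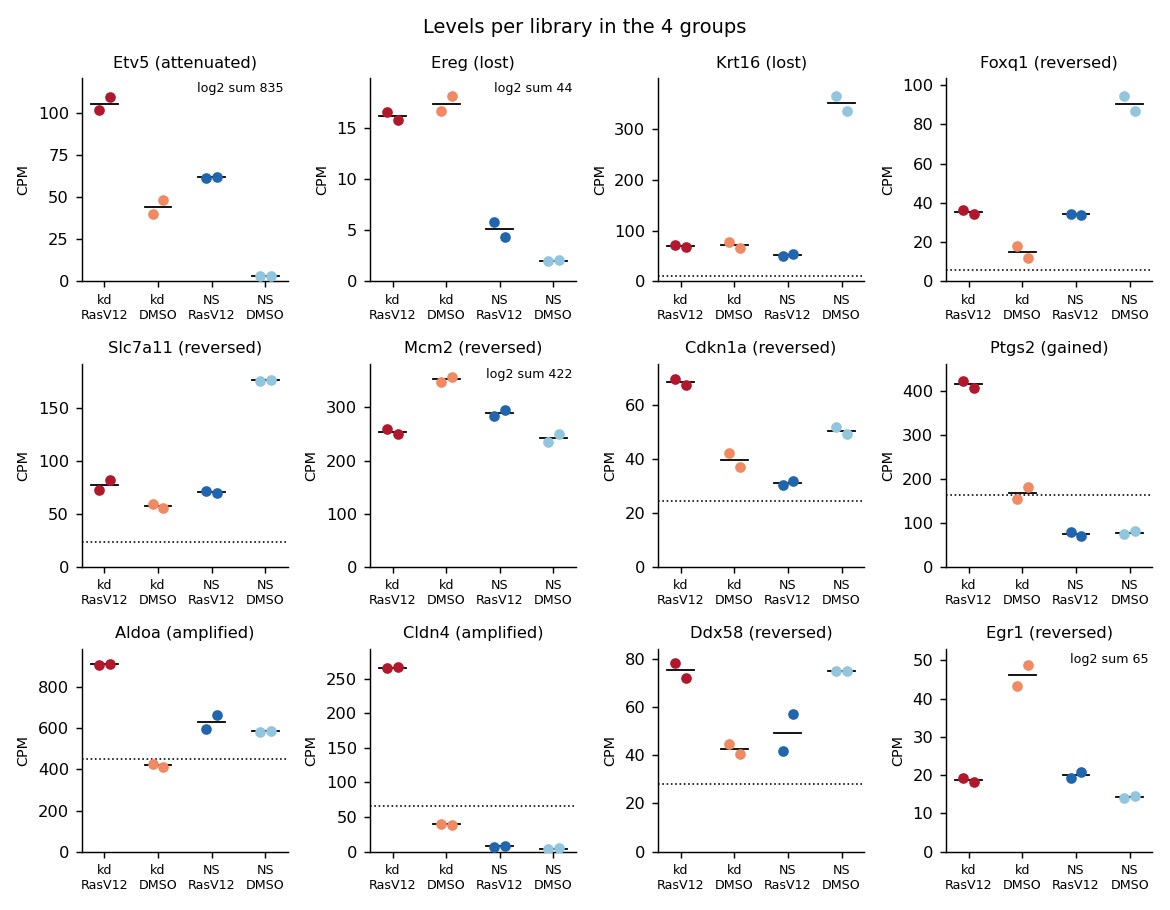
Each panel shows 1 gene, with a point per library in CPM on an axis that starts at 0, a short black line at the mean of the 2 libraries, and the groups from left to right as TGFbR1kd_RasV12, TGFbR1kd, NS_RasV12 and NS. The dotted line is the level that adding the single effects on the log2 scale would give the combination, written as a number where it is off the axis. In Etv5, Ereg, Mcm2 and Egr1 the TGFbR1kd_RasV12 points lie below that level, and in the other 8 panels they lie higher than it.

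Several keratin genes had lost or attenuated falls. RasV12 alone and the knockdown alone each lowered Krt16, Krt6a, Krt17 and Krt14, and the combination departed upward from the sum of both. Krt16, a keratin of wounded and hyperproliferative epidermis, was at 71.3 and 66.8 CPM in TGFbR1kd_RasV12, 77.8 and 65.8 CPM in TGFbR1kd, 50.6 and 54.9 CPM in NS_RasV12 and 364 and 335 CPM in NS libraries. The NS libraries stood several-fold above all others. The Ras response of Krt16 was -0.05 ± 0.08 (adjusted p = 0.672) in knockdown cells, with a 95% interval of -0.23 to 0.13, and -2.73 ± 0.07 (adjusted p = 7e-11) in NS cells. Its interaction was 2.68 ± 0.11 (adjusted p = 8.08e-09). Krt75, a keratin of the hair follicle companion layer, was at 11.3 and 11.1 CPM in TGFbR1kd_RasV12, 11.7 and 7.73 CPM in TGFbR1kd, 3.09 and 2.93 CPM in NS_RasV12 and 15.3 and 14.5 CPM in NS libraries. Its NS_RasV12 libraries were the lowest, and the interaction was 2.53 ± 0.23 (adjusted p = 4.47e-09). Cpa4, a carboxypeptidase, lost a fall that measured -2.60 in NS cells, with an interaction of 2.38 ± 0.30 (adjusted p = 2.82e-06). Krt6a gave 1.06 ± 0.05 (adjusted p = 9.62e-14) and Krt17 0.77 ± 0.05 (adjusted p = 8.77e-11). Reads of such near-identical keratin genes may be shared between them, since the counting rule for reads that match several genes is not given in the sources used here. Of the 5 tested wound keratins and alarmins 3 had a positive interaction (20.2% of all genes) and none a negative one (18%). Their median was 1.06.

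Of 15 basal keratinocyte genes, all tested, 9 had a positive interaction (20.2% of all genes) and 2 a negative one (18% of all genes). The median was 0.35, and 9 were saturated (16.4% of all genes). RasV12 raised 5 and lowered 7 in knockdown cells, against 19.5% and 16.6% of all genes. In NS cells it raised 3 and lowered 10, against 20.8% and 21.3% of all genes. Krt14, the basal keratin, was at 3025 and 2963 CPM in TGFbR1kd_RasV12, 4785 and 4492 CPM in TGFbR1kd, 3538 and 3671 CPM in NS_RasV12 and 8662 and 8263 CPM in NS libraries: each change alone lowered it and the TGFbR1kd_RasV12 libraries were lowest, but by less than the log2 sum, with 0.60 ± 0.04 (adjusted p = 1.63e-10). Krt5, its partner, had 0.63 ± 0.05 (adjusted p = 3.68e-09). The laminin chain genes Lama3 and Lamb3 had interactions of 0.80 ± 0.05 and 0.72 ± 0.05 (adjusted p = 1.93e-13 and 1.57e-12). Among 7 tested keratinocyte markers 5 had a positive interaction (20.2% of all genes) and 2 a negative one (18% of all genes). Their median was 0.35, and the epithelial cadherin Cdh1 had 0.61 ± 0.05 (adjusted p = 4.73e-11). Of 10 tested hair follicle genes 5 were positive (20.2% of all genes) and 2 negative, near the share of all genes (18%). The median of the hair follicle genes was 0.39. Dlx3, a homeobox factor of follicle and epidermis, was reversed at 13.7 and 12.7 CPM in TGFbR1kd_RasV12, 11.1 and 9.84 CPM in TGFbR1kd, 11.1 and 8.94 CPM in NS_RasV12 and 34.2 and 31.3 CPM in NS libraries, with 2.06 ± 0.16 (adjusted p = 1.48e-10).

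Squamous differentiation genes had no shared direction. The knockdown alone raised 14 of the 21 tested members and lowered 3, against 30.9% and 31% of all genes. In knockdown cells RasV12 then raised 7 and lowered 10, against 19.5% and 16.6% of all genes. In NS cells it raised 3 and lowered 5, against 20.8% and 21.3% of all genes. The interaction was positive for 6 and negative for 3, not far from the shares of all genes (20.2% and 18%). The fitted median was 0.54, but 7 members had at most 3 counts in some group, and with these set to that floor the median was -0.26. Without NS_RasV12 replicate 2 the fitted median was 0.96 and without NS replicate 2 it was 0.35. Sbsn, suprabasin, was at 28.7 and 25.01 CPM in TGFbR1kd_RasV12, 63.3 and 53.4 CPM in TGFbR1kd, 6.64 and 7.69 CPM in NS_RasV12 and 81.97 and 93.4 CPM in NS libraries. It fell in knockdown cells (-1.11 ± 0.10, adjusted p = 3.17e-06) and in NS cells (-3.61 ± 0.13, adjusted p = 1.33e-10), so the NS_RasV12 libraries were lowest and the interaction was 2.50 ± 0.18 (adjusted p = 3.12e-07). Dmkn, dermokine, was attenuated in the same way with 1.36 ± 0.10 (adjusted p = 2.13e-10). Krt10, the suprabasal keratin, was at 3.91 and 4.69 CPM in TGFbR1kd_RasV12, 9.32 and 7.73 CPM in TGFbR1kd, 6.33 and 5.64 CPM in NS_RasV12 and 6.84 and 5.12 CPM in NS libraries and gained a fall in knockdown cells, with -0.98 ± 0.25 (adjusted p = 0.0025). The TGFbR1kd libraries were its highest, and both NS groups overlapped. Lor, loricrin, also gained a fall: it was at 31.3 and 29.2 CPM in TGFbR1kd_RasV12, 61.9 and 55.1 CPM in TGFbR1kd, 2.93 and 2.05 CPM in NS_RasV12 and 2.49 and 2.56 CPM in NS libraries, with -0.92 ± 0.26 (adjusted p = 0.00617). Sprr1a, a cornified envelope precursor, lost its rise with -1.62 ± 0.26 (adjusted p = 0.000444), whereas that of Sprr1b was amplified with 0.54 ± 0.18 (adjusted p = 0.0187), and reads of Sprr genes may be shared. The differentiation factors Klf4 and Ovol1 were reversed upward in knockdown cells, with 0.74 ± 0.05 (adjusted p = 1.51e-11) and 1.37 ± 0.13 (adjusted p = 2.92e-09), while Grhl3 rose by 1.49 in knockdown cells and 1.53 in NS cells, with -0.05 ± 0.21 (adjusted p = 0.885).

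Several inflammatory genes gained a rise in the knockdown cells. With Ras 12 of the 13 tested members rose in knockdown cells and 0 fell, where 19.5% of all genes rose. In NS cells 4 rose, not far from the share of all genes (20.8%), and 1 fell. The knockdown alone raised 11 (30.9% of all genes). The interaction was positive for 7 (20.2% of all genes) and negative for 1, with a median of 0.76. Of the 13, 5 were gained (10.1% of all genes). Ptgs2, the inducible prostaglandin synthase, was at 423 and 407 CPM in TGFbR1kd_RasV12, 154 and 180.5 CPM in TGFbR1kd, 79.7 and 69.9 CPM in NS_RasV12 and 73.5 and 80.5 CPM in NS libraries. In knockdown cells it rose by 1.31 ± 0.09 (adjusted p = 5.5e-05), in NS cells the response was -0.04 ± 0.11 (adjusted p = 0.804) with a 95% interval of -0.30 to 0.22, and the interaction was 1.35 ± 0.14 (adjusted p = 0.00044). Nfkbia, the NF-kB inhibitor that NF-kB itself induces, was at 99.9 and 96.8 CPM in TGFbR1kd_RasV12, 58.5 and 56.4 CPM in TGFbR1kd, 41.7 and 40.1 CPM in NS_RasV12 and 40.1 and 40.9 CPM in NS libraries. Its NS_RasV12 and NS libraries overlapped and the interaction was 0.76 ± 0.08 (adjusted p = 3.45e-08). The adhesion molecule Icam1 was at 94.2 and 97.2 CPM in TGFbR1kd_RasV12, 51.9 and 50.5 CPM in TGFbR1kd, 4.17 and 3.22 CPM in NS_RasV12 and 2.86 and 3.13 CPM in NS libraries, with 0.60 ± 0.21 (adjusted p = 0.0232), and the cytokine gene Il1a at 3.26 and 3.44 CPM in TGFbR1kd_RasV12, 0.306 and 0.562 CPM in TGFbR1kd, 0.463 and 0.439 CPM in NS_RasV12 and 0.498 and 0.426 CPM in NS libraries, with 2.94 ± 0.69 (adjusted p = 0.00124). Il1a was near 0 outside the TGFbR1kd_RasV12 libraries. Il1rn, the antagonist of the interleukin 1 receptor, instead lost a fall, with 1.54 ± 0.29 (adjusted p = 0.000123). Other gained rises were Cd68, a lysosomal glycoprotein used as a macrophage marker, at 15.5 and 14.8 CPM in TGFbR1kd_RasV12, 4.51 and 4.92 CPM in TGFbR1kd, 7.80 and 7.32 CPM in NS_RasV12 and 7.53 and 8.74 CPM in NS libraries, and Foxf2, a forkhead factor, with interactions of 1.79 ± 0.20 (adjusted p = 5.28e-08) and 1.69 ± 0.30 (adjusted p = 7.34e-05). Foxf2 averaged 4.22 CPM in TGFbR1kd_RasV12, 1.72 CPM in TGFbR1kd, 7.06 CPM in NS_RasV12 and 9.16 CPM in NS libraries. Its rise thus left it below both NS groups, and its fall of -0.38 in NS cells narrowly missed the threshold (adjusted p = 0.0547).

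Rises of glycolysis and hypoxia genes were mostly amplified. Every one of the 18 tested members rose with Ras in knockdown cells (19.5% of all genes), while 14 rose (20.8% of all genes) and 2 fell in NS cells. The knockdown alone raised 7 and lowered 6, near the shares of all genes (30.9% and 31%). The interaction was positive for 14 (20.2% of all genes) and negative for 0, with a median of 0.43. Of the 18, 10 were amplified (1.16% of all genes) and 5 beyond additive (0.526% of all genes). Ndrg1, a gene induced by hypoxia, was at 118 and 120.0 CPM in TGFbR1kd_RasV12, 36.3 and 31.3 CPM in TGFbR1kd, 59.8 and 62.5 CPM in NS_RasV12 and 50.0 and 52.6 CPM in NS libraries. The knockdown alone lowered it and RasV12 raised it by 1.82 ± 0.06 (adjusted p = 1.26e-18) in knockdown cells against 0.26 ± 0.06 (adjusted p = 0.00127) in NS cells, an interaction of 1.56 ± 0.09 (adjusted p = 1.65e-13). Aldoa, the muscle-type aldolase, was at 908 and 915 CPM in TGFbR1kd_RasV12, 428 and 412 CPM in TGFbR1kd, 597 and 664 CPM in NS_RasV12 and 583 and 589 CPM in NS libraries, with 1.01 ± 0.06 (adjusted p = 5.38e-12); its TGFbR1kd libraries were lowest and its TGFbR1kd_RasV12 libraries highest. Aldoc, another aldolase, gained its rise with 1.60 ± 0.17 (adjusted p = 9.76e-07). Ak4, a mitochondrial adenylate kinase, was at 14.6 and 16.1 CPM in TGFbR1kd_RasV12, 2.98 and 2.32 CPM in TGFbR1kd, 30.1 and 34.4 CPM in NS_RasV12 and 22.1 and 22.6 CPM in NS libraries: the NS_RasV12 libraries stayed highest, yet the Ras response was 2.53 ± 0.16 (adjusted p = 1.04e-12) in knockdown cells and 0.53 ± 0.09 (adjusted p = 1.62e-05) in NS cells. Vegfa and Bnip3 were amplified, with 0.91 ± 0.18 (adjusted p = 0.000299) and 1.32 ± 0.19 (adjusted p = 2.46e-06). Vegfa was at 22.2 and 24.6 CPM in TGFbR1kd_RasV12 and 4.43 and 3.58 CPM in TGFbR1kd libraries. Its NS_RasV12 libraries stayed highest, at 41.5 and 48.7 CPM, with its NS libraries at 13.99 and 15.1 CPM. The combination of Vegfa, 23.4 CPM on average, was above its log2 sum of 12.4 CPM but below its CPM sum of 34.6 CPM. Its rise was thus amplified on the log2 scale only. Bnip3 was highest in the TGFbR1kd_RasV12 libraries, at 24.4 and 21.9 CPM. Slc2a1, the main glucose transporter of keratinocytes, was reversed at 478 and 474 CPM in TGFbR1kd_RasV12, 431 and 384 CPM in TGFbR1kd, 198 and 194 CPM in NS_RasV12 and 361 and 324 CPM in NS libraries, with 1.03 ± 0.09 (adjusted p = 7.98e-06). Eno1, Hk2 and Gapdh rose in both kinds of cells, with interactions of 0.04 ± 0.06, 0.07 ± 0.08 and -0.11 ± 0.19 that did not pass (adjusted p = 0.624, 0.53 and 0.701).

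Interferon-stimulated and antigen presentation genes had no negative interaction past the test. Of 17 interferon-stimulated genes tested, 4 rose, near the share of all genes (19.5%), and 0 fell in knockdown cells. In NS cells 0 rose and 9 fell (21.3% of all genes), and the knockdown alone raised 1 and lowered 13 (31% of all genes). The interaction was positive for 8 (20.2% of all genes) and negative for 0, with a median of 1.16, which was 0.68 without NS_RasV12 replicate 1 and 0.69 without NS replicate 1. Ddx58, the sensor RIG-I, was at 78.2 and 72.1 CPM in TGFbR1kd_RasV12, 44.5 and 40.5 CPM in TGFbR1kd, 41.5 and 57.2 CPM in NS_RasV12 and 74.8 and 74.96 CPM in NS libraries. It rose in knockdown cells (0.83 ± 0.15, adjusted p = 0.00785) and fell in NS cells (-0.60 ± 0.14, adjusted p = 0.0205), an interaction of 1.42 ± 0.20 (adjusted p = 0.00318), with the TGFbR1kd_RasV12 and NS libraries overlapping at the top. Ifih1, the related sensor MDA5, was at 4.10 and 4.85 CPM in TGFbR1kd_RasV12, 3.21 and 2.95 CPM in TGFbR1kd, 2.62 and 2.49 CPM in NS_RasV12 and 4.60 and 4.12 CPM in NS libraries, with 1.30 ± 0.29 (adjusted p = 0.000755). Stat2, a subunit of the interferon-activated transcription factor, gained a rise with 0.71 ± 0.13 (adjusted p = 9.5e-05). Xaf1 lost a fall and was at 2.80 and 3.28 CPM in TGFbR1kd_RasV12, 2.67 and 2.67 CPM in TGFbR1kd, 6.02 and 11.3 CPM in NS_RasV12 and 29.4 and 27.99 CPM in NS libraries, with 1.90 ± 0.42 (adjusted p = 0.00433), its NS_RasV12 libraries being far apart. Of 7 tested genes of MHC class I presentation 5 rose in knockdown cells (19.5% of all genes). In NS cells 1 rose and 3 fell, against 20.8% and 21.3% of all genes. Of these 7, 4 had a positive interaction (20.2% of all genes) and 0 a negative one. Their median was 0.31, which was 0.16 without NS_RasV12 replicate 1. Tap2, a subunit of the peptide transporter, was reversed at 10.3 and 9.22 CPM in TGFbR1kd_RasV12, 5.65 and 5.41 CPM in TGFbR1kd, 3.86 and 3.81 CPM in NS_RasV12 and 6.34 and 5.61 CPM in NS libraries, with 1.47 ± 0.23 (adjusted p = 8.95e-06). Its partner Tap1 lost a fall with 1.003 ± 0.17 (adjusted p = 2.32e-05), and the peptide-loading protein gene Tapbp was reversed with 0.98 ± 0.10 (adjusted p = 6.43e-05), whereas H2-K1 rose in both kinds of cells with an interaction of -0.06 ± 0.18 (adjusted p = 0.834).

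**Figure D4:**
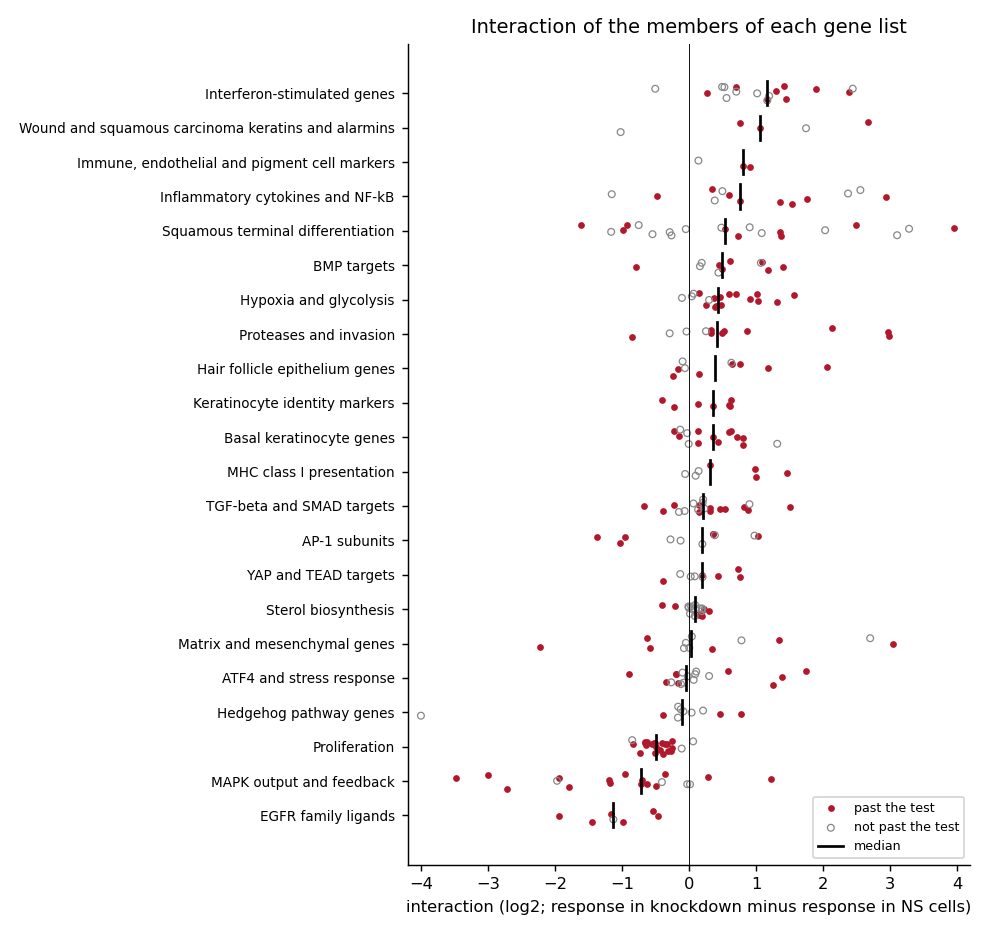
Each row is 1 of 22 gene lists, ordered by its median interaction, which a black bar marks, and each point is a tested member at its interaction on the log2 scale. Filled points passed the test and open ones did not, and 1 member is drawn at the edge of the axis at 4. EGFR family ligands, at -1.13, stand at the low end, and interferon-stimulated genes, at 1.16, at the high end.

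Targets of TGF-beta and BMP had more positive than negative interactions. Of 20 TGF-beta and SMAD targets tested, 10 rose and 2 fell with Ras in knockdown cells, against 19.5% and 16.6% of all genes. In NS cells 6 rose and 8 fell, against 20.8% and 21.3% of all genes. The knockdown alone raised 5 and lowered 9, against 30.9% and 31% of all genes. The interaction was positive for 9 (20.2% of all genes) and negative for 3, which is no more than the share of all genes (18%), with a median of 0.21. Tgfbi, a matrix protein named for its induction by TGF-beta, was at 244 and 239 CPM in TGFbR1kd_RasV12, 268 and 238 CPM in TGFbR1kd, 206 and 203 CPM in NS_RasV12 and 393 and 360.2 CPM in NS libraries: it lost its fall, with 0.82 ± 0.07 (adjusted p = 5.2e-07). Pmepa1, a classical target, did not pass, with 0.14 ± 0.06 (adjusted p = 0.06). Of 11 BMP targets 6 were positive (20.2% of all genes) and 1 negative (18% of all genes), with a median of 0.49. The knockdown alone raised 3 and lowered 7 of them, against 30.9% and 31% of all genes. The inhibitory SMAD gene Smad6 was reversed at 23.2 and 22.2 CPM in TGFbR1kd_RasV12, 18.1 and 17.99 CPM in TGFbR1kd, 13.5 and 14.4 CPM in NS_RasV12 and 24.4 and 22.5 CPM in NS libraries, with 1.08 ± 0.13 (adjusted p = 2.35e-07), and Id3 gained a rise with 0.49 ± 0.07 (adjusted p = 1.08e-06). Among 12 tested proteases and inhibitors 8 were positive (20.2% of all genes) and 1 negative (18% of all genes), with a median of 0.41. Serpinb2, an inhibitor of the urokinase-type plasminogen activator, was at 54.6 and 55.5 CPM in TGFbR1kd_RasV12, 43.5 and 44.3 CPM in TGFbR1kd, 4.94 and 4.39 CPM in NS_RasV12 and 15.7 and 17.2 CPM in NS libraries. It rose in knockdown cells (0.33 ± 0.06, adjusted p = 0.000172) and fell in NS cells (-1.81 ± 0.13, adjusted p = 3e-12), an interaction of 2.14 ± 0.14 (adjusted p = 4.32e-12). Plau, the activator itself, was also reversed, with 0.86 ± 0.09 (adjusted p = 4.13e-08), and Timp3, an inhibitor of metalloproteases, was attenuated with 0.53 ± 0.04 (adjusted p = 6.54e-11). Matrix and mesenchymal genes were divided, with 3 of 12 positive and 3 negative, near the shares of all genes (20.2% and 18%). Their median was 0.02 (-0.02 with near-zero members at the floor, and -0.00 to 0.19 with single libraries left out). Sparc, a matricellular protein, was reversed at 643 and 624 CPM in TGFbR1kd_RasV12, 586 and 569 CPM in TGFbR1kd, 669 and 688 CPM in NS_RasV12 and 789 and 778 CPM in NS libraries, with 0.34 ± 0.04 (adjusted p = 8.28e-07), and Twist1, a mesenchymal transcription factor, lost a rise with -0.58 ± 0.14 (adjusted p = 0.00178).

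The promoters of 3 reversed genes are shown because, of the reversed genes named here whose promoter was searched, they hold a motif of a factor at the end of either pathway in the first start listed. They span 250 bases before to 50 after the RefSeq start on build GRCm38.p6, 5' to 3' on the strand of the gene. Capitals mark matches on either strand to TGANTCA (AP-1), CCGGAAG (ETS) or CAGACA (a SMAD motif). Serpinb2 lies at chr1:107511173-107511472 on the plus strand and holds an AP-1 match, Sparc at chr11:55420031-55420330 on the minus strand with SMAD matches, and Ifih1 at chr2:62646206-62646505 on the minus strand with an ETS match.
Serpinb2: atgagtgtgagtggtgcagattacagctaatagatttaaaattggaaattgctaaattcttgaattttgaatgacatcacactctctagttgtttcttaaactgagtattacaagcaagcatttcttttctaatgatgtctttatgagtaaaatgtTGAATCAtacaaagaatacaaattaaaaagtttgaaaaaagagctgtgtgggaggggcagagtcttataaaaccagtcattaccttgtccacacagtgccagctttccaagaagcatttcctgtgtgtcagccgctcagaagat
Sparc: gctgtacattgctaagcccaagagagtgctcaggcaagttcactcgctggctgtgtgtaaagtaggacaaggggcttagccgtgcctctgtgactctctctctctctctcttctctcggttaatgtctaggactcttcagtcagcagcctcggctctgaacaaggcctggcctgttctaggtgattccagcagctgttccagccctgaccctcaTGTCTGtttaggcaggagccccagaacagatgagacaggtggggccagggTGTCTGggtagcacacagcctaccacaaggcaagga
Ifih1: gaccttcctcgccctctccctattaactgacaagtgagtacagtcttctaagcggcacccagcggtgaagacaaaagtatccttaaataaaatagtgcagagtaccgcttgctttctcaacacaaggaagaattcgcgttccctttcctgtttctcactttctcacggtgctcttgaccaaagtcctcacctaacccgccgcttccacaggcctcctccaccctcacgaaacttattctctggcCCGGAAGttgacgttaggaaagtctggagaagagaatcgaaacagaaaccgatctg
Promoters of 14 of the 22 reversed genes named were searched, and 1 held the AP-1, 1 the ETS and 1 the SMAD motif in the first start listed. Cdkn1a held a SMAD match in its second start only, which is not shown. The AP-1 motif is held by 7.81% of all 32851 promoters listed there, the ETS motif by 8.86% and the SMAD motif by 21.0%. The matches are letters in a window and say nothing of binding in these cells.

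The medians of 5 further lists lay between -0.10 and 0.20. AP-1 subunits rose with Ras in both kinds of cells. In knockdown cells 11 of 11 rose (19.5% of all genes), and in NS cells 6 rose (20.8% of all genes) and 1 fell. Of their interactions 3 were positive and 3 negative, not far from the shares of all genes (20.2% and 18%). Their median of 0.20 was between 0.03 and 0.37 with single libraries left out, the ends being NS_RasV12 replicate 1 and 2. Fosl2, a Fos family member, was reversed at 300.2 and 294 CPM in TGFbR1kd_RasV12, 224 and 219 CPM in TGFbR1kd, 372 and 378 CPM in NS_RasV12 and 579 and 569 CPM in NS libraries, with 1.04 ± 0.05 (adjusted p = 3.97e-15), while Jund was amplified with 0.36 ± 0.05 (adjusted p = 2.41e-06) and Fosl1 attenuated with -0.95 ± 0.25 (adjusted p = 0.0037). Hedgehog pathway genes, the driver of this tumour type, had 2 positive and 1 negative interaction among 10, no more than the shares of all genes (20.2% and 18%), with a median of -0.10 that turned to 0.03 without TGFbR1kd_RasV12 replicate 1 and 0.01 without NS replicate 2. The coreceptor gene Gas1 was attenuated at 83.0 and 72.1 CPM in TGFbR1kd_RasV12, 116 and 99.6 CPM in TGFbR1kd, 109 and 103 CPM in NS_RasV12 and 263 and 241 CPM in NS libraries, with 0.78 ± 0.13 (adjusted p = 0.003), Gli3 lost a rise with -0.40 ± 0.09 (adjusted p = 0.00366), and Ptch1, the receptor and target gene, gave 0.21 ± 0.15 (adjusted p = 0.284). Of 18 ATF4 and stress genes 4 were positive and 5 negative, not far from the shares of all genes (20.2% and 18%). Their median was -0.05 (-0.09 and -0.01 without NS_RasV12 replicate 1 and 2). Besides Slc7a11 the amino acid transporter Slc7a5 was reversed in the other direction, with -0.89 ± 0.07 (adjusted p = 1.5e-08). Atf3 rose in both, by 2.12 ± 0.09 in knockdown cells and 2.40 ± 0.09 in NS cells, with -0.28 ± 0.14 (adjusted p = 0.128). Of 19 sterol genes 5 were positive and 2 negative, against 20.2% and 18% of all genes, with a median of 0.09. The regulator Srebf2 had 0.20 ± 0.04 (adjusted p = 0.000699). Of 9 YAP and TEAD targets 4 were positive (20.2% of all genes) and 1 negative, among them Crim1 with 0.77 ± 0.05 (adjusted p = 5.98e-12) and Ptpn14 with 0.73 ± 0.05 (adjusted p = 6.36e-11); their median of 0.20 was 0.08 without TGFbR1kd replicate 1 or NS_RasV12 replicate 1 and 0.10 without NS replicate 2.

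Genes beyond additive were few but included large ones. Cldn4, a tight junction claudin, was at 266 and 266 CPM in TGFbR1kd_RasV12, 40.3 and 39.0 CPM in TGFbR1kd, 6.79 and 8.35 CPM in NS_RasV12 and 3.98 and 5.12 CPM in NS libraries. Each change alone raised it, and together they gave 266 CPM on average against 66.03 CPM by the log2 sum and 42.7 CPM by the CPM sum, an interaction of 1.996 ± 0.17 (adjusted p = 5.67e-10). In the downward direction, Itgb8, an integrin subunit that activates latent TGF-beta, was at 13.03 and 13.2 CPM in TGFbR1kd_RasV12, 23.8 and 22.8 CPM in TGFbR1kd, 22.4 and 22.8 CPM in NS_RasV12 and 29.98 and 29.2 CPM in NS libraries, with the TGFbR1kd_RasV12 libraries lowest and an interaction of -0.44 ± 0.12 (adjusted p = 0.00596, or 0.0905 by DESeq2). Pi15, a protease inhibitor, was at 4.10 and 3.67 CPM in TGFbR1kd_RasV12, 12.2 and 11.1 CPM in TGFbR1kd, 48.9 and 38.96 CPM in NS_RasV12 and 85.6 and 81.9 CPM in NS libraries, with -0.64 ± 0.20 (adjusted p = 0.0156). The combination of Pi15 was below its log2 sum of 6.12 CPM, but its CPM sum was -28.1 CPM, a level that cannot occur. Pi15 was thus beyond additive on the log2 scale only. Its call was lost without TGFbR1kd_RasV12 replicate 1 (-0.73, adjusted p = 0.0505), TGFbR1kd_RasV12 replicate 2 (-0.57, adjusted p = 0.0898) or TGFbR1kd replicate 1 (-0.58, adjusted p = 0.07). In contrast Tubb3, the neuronal beta-tubulin, was at 10.03 and 9.69 CPM in TGFbR1kd_RasV12, 14.9 and 16.2 CPM in TGFbR1kd, 6.95 and 6.52 CPM in NS_RasV12 and 58.8 and 64.5 CPM in NS libraries, so that the combination lay between the single changes, all 3 far below the NS libraries, with 2.54 ± 0.16 (adjusted p = 1.53e-12).

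Whether effects add depends on the scale, and for CPM only the direction of the departure was counted, without a test or a size. Etv5, at 105 CPM in TGFbR1kd_RasV12, was far below its log2 sum of 835 CPM but near its CPM sum of 103 CPM. Esr1, at 3887 CPM in TGFbR1kd_RasV12, was below its log2 sum of 5354 CPM but above its CPM sum of 3561 CPM. Its rise was thus attenuated on the log2 scale only. Adding the single effects in CPM instead of log2, the combination of 941 of the 970 genes saturated upward was still below the sum. That of all 1084 saturated downward was above it, which was fixed in advance. Where both single effects share a sign, the CPM sum is never above the log2 sum. Of the 4791 genes past the test 40 departed in the opposite direction in CPM. By rank of group means, the NS group was highest for 1276 of the 2530 genes with a positive interaction and the combination highest for 1105. For the 2261 negative ones the NS group was lowest for 1148 and the combination lowest for 1042. The NS group and the combination enter the interaction with the same sign, so these ranks follow in part from how the genes were picked.

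**Figure D5:**
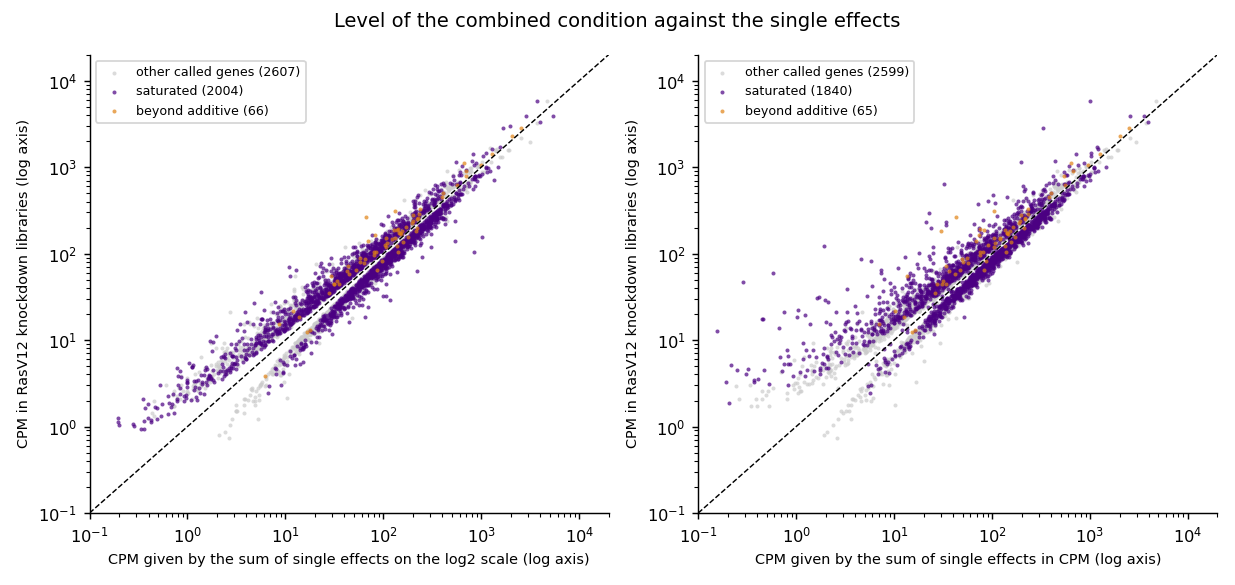
Points are the 4677 genes past the interaction test with at least 20 counts in every group, with the mean CPM of the TGFbR1kd_RasV12 libraries on the vertical axis against the level that the single effects add up to, on the log2 scale in the left panel and in CPM in the right, all on log axes. On the dashed line the combination equals the sum, and 173 genes whose CPM sum is at or under 0.1 are not drawn at the right. Saturated genes lie on both sides of the line, at the left below it where each change alone raised them and above it where each lowered them. At the right a few that each change raised, such as Etv5, lie above the line.

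Where a group held almost no counts a fold has little meaning, and 23 of the genes past the test had at most 3 counts in some group. Dsg1a, a desmosomal cadherin of the upper epidermis, had 19.5 and 16.5 counts in the TGFbR1kd_RasV12 libraries, 68 and 36 in the TGFbR1kd libraries, 2 and 0 in the NS_RasV12 libraries and 62 and 54.5 in the NS libraries. Its NS_RasV12 libraries alone were close to 0. Krt19, a keratin of simple and follicular epithelium, had 58 and 39.5 counts in the TGFbR1kd_RasV12 libraries, 45 and 46 in the TGFbR1kd libraries, 0.5 and 0.5 in the NS_RasV12 libraries and 2.5 and 9.5 in the NS libraries. Styk1, a kinase-like gene, had 58.5 and 42 counts in the TGFbR1kd_RasV12 libraries, 24.5 and 37 in the TGFbR1kd libraries, 3 and 4 in the NS_RasV12 libraries and 0 and 0 in the NS libraries. Both were low in both NS groups, as was Cysrt1, with 49 and 27 counts in the TGFbR1kd_RasV12 libraries, 35.5 and 32 in the TGFbR1kd libraries, 0 and 2.5 in the NS_RasV12 libraries and 7 and 8 in the NS libraries. The calls of Styk1, Krt19 and Cysrt1 were each lost under at least 1 of the alternatives tried.

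Markers of fibroblasts were low in all groups. Of the 9 listed 2 were tested, and Col3a1, Lum, Thy1 and Dpt had no counts in any group. The 9 summed to 1.14 to 1.95 CPM in the TGFbR1kd_RasV12 libraries, 2.67 to 3.02 in the TGFbR1kd libraries, 3.47 to 4.39 in the NS_RasV12 libraries and 3.77 to 3.92 in the NS libraries. Dcn had an interaction of -1.91 ± 0.53 (adjusted p = 0.00568) that was lost by DESeq2 at a similar size (-1.88, adjusted p = 0.0529) and without TGFbR1kd_RasV12 replicate 1 (-1.2, adjusted p = 0.0944) or TGFbR1kd replicate 2 (-1.52, adjusted p = 0.0633). Without TGFbR1kd_RasV12 replicate 2 it was -3.01. Of 13 immune, endothelial and pigment cell markers 3 were tested and Cd3e, Adgre1, Dct and Tyr had no counts. The 13 summed to 70.9 to 72.3 CPM in the TGFbR1kd_RasV12 libraries, 59.6 to 60.3 in the TGFbR1kd libraries, 79.7 to 80.2 in the NS_RasV12 libraries and 90.4 to 92.1 in the NS libraries. Most of these sums came from Pecam1 and Mitf, a pigment cell transcription factor gene. Mitf was at 36.7 and 33.4 CPM in TGFbR1kd_RasV12, 29.3 and 29.2 CPM in TGFbR1kd, 52.03 and 53.3 CPM in NS_RasV12 and 49.5 and 46.9 CPM in NS libraries. Pecam1, an endothelial adhesion gene, was at 31.4 and 32.7 CPM in TGFbR1kd_RasV12, 26.05 and 27.8 CPM in TGFbR1kd, 23.8 and 22.4 CPM in NS_RasV12 and 36.4 and 37.02 CPM in NS libraries and had 0.92 ± 0.11 (adjusted p = 1.26e-07), and Pmel, of pigment cells, 0.81 ± 0.26 (adjusted p = 0.0154), whose call was lost by DESeq2 (adjusted p = 0.141) and without TGFbR1kd_RasV12 replicate 2, TGFbR1kd replicate 2 or NS_RasV12 replicate 1 (adjusted p = 0.0581, 0.0896 and 0.0625). The keratinocyte markers summed to 12007 to 12481 CPM in the TGFbR1kd_RasV12 libraries, 15901 to 16643 in the TGFbR1kd libraries, 12473 to 12698 in the NS_RasV12 libraries and 24970.0 to 25302 in the NS libraries, so they were abundant in every group. In such bulk RNA fewer cells of a type and less RNA per cell cannot be told apart, and the part of cell composition in the interactions was not tested.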

How the data were processed

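ASZ001 RNA in 4 groups of 2 was isolated by RNeasy and sequenced as TruSeq libraries, per the labels' protocols. The authors deposited estimated counts for each gene as 1 table, without normalization, aligned with TopHat and counted with HOMER on build mm9, per the submitters' processing notes, which also name DESeq2. Not given in the sources used here are versions, strand setting, doses and times, so reads of overlapping or antisense genes cannot be told apart. All values were multiples of 0.5 (100%) and were rounded to whole numbers. The design had assumed whole counts.

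The table holds 24909 entries. Of entries sharing a symbol the larger was kept (2 dropped), and columns were matched to samples by name. edgeR 4.0.16 in R 4.3.3 kept 12538 genes with filterByExpr (99.96% of counts), left out 12369, applied TMM scaling, and fitted 1 robust quasi-likelihood model with a mean per group and 4 residual degrees of freedom. Calls are two-sided at a Benjamini-Hochberg adjusted p of 0.05, and the same test gave the classes, with the Ras response or knockdown effect called at 0.05. The script was tested on simulated data. Totals in counts were 15542242 and 13047710 (TGFbR1kd_RasV12), 12874759 and 14195384.5 (TGFbR1kd), 12724604.5 and 13590485 (NS_RasV12) and 16233379 and 14130153.5 (NS). The floor of 3 counts covers counting error only. Replicates correlated at 0.997 to 0.998 on log2(CPM + 1) across genes and differed by more than sampling noise.

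Named genes are Tgfbr1, Hras, Nras and Esr1, the genes with the largest interaction in each class and direction (3 for reversed, lost and gained, 2 for the others) among those with at least 5 CPM and 20 counts in each group, up to 2 members per list with the smallest p, and 4 near-zero genes as counts. A gene that this rule picked and a few list members are not reported here, though counts, medians and sums over lists hold them. Other list members named serve as examples and were chosen with their values known. Alternatives were DESeq2 1.42.0, other scaling and filters, a replicate block, leaving out each library or Rn45s, other thresholds and classes by size. The genes, lists and classes were chosen with earlier results of these data known. Promoters are from RefSeq on GRCm38.p6, whose coordinates are not those of the authors' build.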

Additional observations from a re-analysis of the deposited data

Results flagged for a closer look

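The difference between the Ras response of knockdown cells and that of NS cells was tested directly, by the interaction, for each gene named, and it passed for the 70 genes given here by their interaction on the log2 scale.

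Responses reversed upward in knockdown cells were those of Adam8 (2.97), Foxq1 (2.66), Pgm5 (2.63), Serpinb2 (2.14), Dlx3 (2.06), Slc7a11 (1.74), Cdkn1a (1.51), Tap2 (1.47), Ifih1 (1.30), Vldlr (1.25), Smad6 (1.08), Fosl2 (1.04), Pecam1 (0.92), Crim1 (0.77), Klf4 (0.74), Cdh1 (0.61) and Sparc (0.34). Those reversed downward in knockdown cells were Prkg2 (-1.81), Egr1 (-1.80), Htr5b (-1.41), Mcm2 (-0.73) and Mcm5 (-0.63).

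Falls that NS cells showed were lost by Krt16 (2.68), Krt75 (2.53), Cpa4 (2.38), Il1rn (1.54), Krt6a (1.06), Tap1 (1.003), Tgfbi (0.82), Pmel (0.81) and Ptpn14 (0.73). Rises were lost by Sprr1a (-1.62), Ereg (-1.44), the guidance gene Ntn1 (-1.38), Nrg1 (-0.99), Twist1 (-0.58) and Gli3 (-0.40). Rises were gained by Cd68 (1.79), Foxf2 (1.69), Aldoc (1.60), Nfkbia (0.76), Stat2 (0.71), Id3 (0.49) and the sterol enzyme gene Fdft1 (0.30), and falls by Dcn (-1.91), the transcription factor gene Myb (-1.21), the lysosomal transporter gene Abcb9 (-1.03) and Krt10 (-0.98).

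Attenuated rises were those of Etv5 (-2.99), Etv4 (-2.72), Epgn (-1.16) and Esr1 (-0.46), and attenuated falls those of Tubb3 (2.54), Sbsn (2.50), Dmkn (1.36), Lama3 (0.80), Gas1 (0.78), Krt17 (0.77), Krt14 (0.60) and Timp3 (0.53). Amplified rises were those of Ak4 (2.002), Cldn4 (1.996), Ndrg1 (1.56), Ier3 (1.23), Aldoa (1.01), Jund (0.36) and Srebf2 (0.20), and amplified falls those of Pi15 (-0.64) and Itgb8 (-0.44). Nras (-0.13) passed with neither response called alone. Groups of 2 libraries are too small for a check of single outlying samples.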

How the results depend on the processing

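Of the 74 named genes that passed, 61 did so under every alternative and none changed sign. Calls were lost by DESeq2 for 6, by a test against a minimum interaction of 1.2-fold for 11, which include Jund, Gli3, Sparc, Srebf2 and Fdft1, and by leaving out some library for 7. The interaction of Hras, not called, ranged from -0.0126 to 0.0199 with single libraries left out, turning in sign for 4 of them.

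DESeq2 called 2828 genes, 1618 positive and 1210 negative, and 2808 of them, 58.6% of the 4791 and 99.3% of its own, were shared. Its classes held 451 reversed, 1110 lost, 783 gained, 166 attenuated, 62 amplified, 1104 saturated and 30 beyond additive genes. With the minimum of 1.2-fold 1866 genes passed, 1182 positive and 684 negative (63.3% positive, against 52.8%), with 519 lost, 337 gained, 162 attenuated, 42 amplified, 7 of neither, 1052 saturated and 20 beyond additive. At an adjusted p of 0.01 there were 611 reversed, 211 attenuated, 81 amplified, 1346 saturated and 36 beyond additive. Where a response had to reach 0.5 on the log2 scale in place of passing a test, 154 were reversed, 706 lost, 392 gained, 94 attenuated, 38 amplified, 3407 of neither, 544 saturated and 16 beyond additive. Leaving out single libraries gave 3918 to 4533 calls, with 724 to 1003 reversed, 1272 to 1744 lost, 854 to 1340 gained, 219 to 344 attenuated, 89 to 140 amplified, 1462 to 1969 saturated and 40 to 59 beyond additive. The cause of these changes was not tested. No call changed direction under any alternative, and the median interaction of all genes stayed between -0.00 and 0.03.

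Libraries with the same replicate number did not deviate together (correlations of -0.05 to 0.07), so the number is not taken as a pairing. With it as a block 4814 genes passed, 4747 of them shared. With 2 libraries a group and 4 residual degrees of freedom small interactions can be missed, and 12369 symbols had too few counts to test.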

Other observations

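Genes outside the lists, chosen after their values were seen, showed further biology. Wnt7a, an epidermal Wnt ligand, was reversed at 74.01 and 79.5 CPM in TGFbR1kd_RasV12, 42.1 and 46.7 CPM in TGFbR1kd, 6.56 and 7.03 CPM in NS_RasV12 and 13.7 and 15.7 CPM in NS libraries, with an interaction of 1.89 ± 0.14 (adjusted p = 5.15e-11). Sostdc1, an inhibitor of BMP and Wnt signalling in the hair follicle, was reversed as well: its TGFbR1kd_RasV12 libraries stood highest, at 65.9 and 63.8 CPM in TGFbR1kd_RasV12, 36.3 and 33.2 CPM in TGFbR1kd, 17.3 and 14.6 CPM in NS_RasV12 and 47.1 and 39.6 CPM in NS libraries. Its interaction was 2.35 ± 0.12 (adjusted p = 1.09e-12). The transcription factor gene Maf was at 14.5 and 15.9 CPM in TGFbR1kd_RasV12, 9.17 and 7.59 CPM in TGFbR1kd, 4.48 and 4.10 CPM in NS_RasV12 and 11.2 and 9.66 CPM in NS libraries, with 2.15 ± 0.20 (adjusted p = 3.34e-09), and Spint1, an inhibitor of membrane serine proteases, at 42.5 and 39.6 CPM in TGFbR1kd_RasV12, 34.4 and 30.5 CPM in TGFbR1kd, 7.26 and 8.64 CPM in NS_RasV12 and 17.4 and 17.3 CPM in NS libraries, with 1.47 ± 0.14 (adjusted p = 4.84e-09). Epithelial genes with lost falls included Ecm1, Aqp3, Tchh and Hoxc13, with 1.69 ± 0.07, 1.62 ± 0.08, 1.40 ± 0.11 and 1.58 ± 0.17 (adjusted p = 1.43e-15, 8.72e-13, 9.19e-11 and 1.75e-07). Ecm1, an extracellular matrix protein, was at 75.2 and 69.4 CPM in TGFbR1kd_RasV12, 77.9 and 73.9 CPM in TGFbR1kd, 46.2 and 47.97 CPM in NS_RasV12 and 159.5 and 159 CPM in NS libraries. Both knockdown groups of Ecm1 overlapped, below the NS libraries and above the NS_RasV12 libraries.

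Rises that both changes shared extended past the ERK list. Hmga2, an oncofetal chromatin protein, was at 119 and 119.7 CPM in TGFbR1kd_RasV12, 64.6 and 71.5 CPM in TGFbR1kd, 6.95 and 5.57 CPM in NS_RasV12 and 1.62 and 1.14 CPM in NS libraries: it rose with Ras in both kinds of cells and far more with the knockdown, with -1.35 ± 0.24 (adjusted p = 4.99e-05). The combination of Hmga2 was below its log2 sum of 309 CPM but above its CPM sum of 72.9 CPM, so it fell short on the log2 scale only. Slit2, a guidance ligand, was at 89.6 and 95.03 CPM in TGFbR1kd_RasV12, 81.2 and 80.1 CPM in TGFbR1kd, 24.9 and 25.6 CPM in NS_RasV12 and 8.09 and 8.24 CPM in NS libraries, with -1.44 ± 0.11 (adjusted p = 8.01e-11), and Tcf7, a Wnt pathway factor, at 28.3 and 29.5 CPM in TGFbR1kd_RasV12, 20.2 and 22.1 CPM in TGFbR1kd, 33.04 and 29.4 CPM in NS_RasV12 and 5.35 and 5.83 CPM in NS libraries, with -2.03 ± 0.15 (adjusted p = 2.37e-11). In Tcf7 the TGFbR1kd_RasV12 and NS_RasV12 libraries were close to each other. Lgals1, galectin 1, was attenuated with -1.19 ± 0.06 (adjusted p = 2.32e-14). Spp1, osteopontin, was no such shared rise, as the knockdown alone lowered it (-0.92, adjusted p = 0.00409). It was at 3.52 and 3.05 CPM in TGFbR1kd_RasV12, 1.68 and 1.62 CPM in TGFbR1kd, 16.98 and 19.3 CPM in NS_RasV12 and 3.73 and 2.42 CPM in NS libraries, with -1.54 ± 0.34 (adjusted p = 0.000611), so the NS_RasV12 libraries alone were high.

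The large interactions were mostly positive, 442 against 95. The NS group had the highest mean for 244 of the 442, and the combination for 175. The NS group had the lowest mean for 64 of the 95 negative ones, and the combination for 28. These ranks too follow in part from the sign of the interaction by which the genes were picked.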
